A study of Mus musculus with 12 samples.

Results

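The genes described here mark the mesothelium, the single sheet of flat cells that covers the lung and lines the body cavities. They are 10 of the 24421 gene symbols in the count table: Msln, Mslnl, Wt1, Upk3b, Upk1b, Lrrn4, Gpm6a, Bnc1, Podxl and Itln1. Of these, 7 were taken by symbol as known mesothelial genes (Msln, Wt1, Upk3b, Upk1b, Lrrn4, Gpm6a and Bnc1). The other 3, Mslnl, Podxl and Itln1, were added because of their pattern in these same libraries, so their values are given as a description without a test. All 10 passed the filter on low counts, which left 15246 genes for testing.

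RNA was sequenced in bulk from whole lungs of wild type CD-1 mouse fetuses, isolated at E12.5 and grown in Matrigel at an air-liquid interface. On Day 0, a day later, PEG-HCC (a gel precursor that hardens under a two-photon laser) was put into the Matrigel as a 20% solution. Day 2 compression lungs were enclosed by crosslinked polymer that held back their growth, whereas Day 2 control lungs received an equal amount without crosslinking. The Day 0 lungs carry the treatment label control, and the sources used here do not state whether they had received polymer at collection. Each of the 3 groups holds 4 libraries, and no allele, transgene or drug differs between them. No label says that libraries stem from different animals, so p-values measure the spread between these samples, which may be technical.

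The mesothelium arises from the lateral plate mesoderm and is unusual in making both keratins, as an epithelium does, and mesodermal transcription factors such as WT1. In the embryonic lung it secretes FGF9 and retinoic acid to the mesenchyme beneath it, and some of its cells can leave the sheet and join that mesenchyme. Mature mesothelial cells carry surface glycoproteins such as mesothelin, and their sheet gives the organ a smooth, non-adhesive surface.

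Depth was 13979871 to 33249761 total counts for Day 0 libraries, 15452117 to 30805341 for controls and 25680019 to 31739019 for compression. Levels are CPM, the counts scaled to TMM-adjusted library sizes, and group values are mean ± SD (n = 4). A level of 3 counts, the floor used here, corresponds to 0.0899 to 0.214 CPM in single libraries. Markers of liver stood apart in control replicate 4, where 10 of them summed to 1930 CPM, against 24 to 106 CPM in the other 11 libraries. The most similar pair within a group was compression replicates 2 and 3 (mean chi-square per gene 4.07, against 7.48 to 122 in 17 other pairs), and their descriptions read 13 followed by A or B. They were counted as 2 samples, as labelled. Because these are bulk samples, fewer cells of a type and less RNA per cell cannot be told apart.

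The windows around the start sites of the genes show what kind of sequence precedes them. RefSeq (build GRCm38.p6) gave windows from 250 bases before to 50 bases after the start for 6 of the 10 genes, Mslnl, Itln1, Upk3b, Lrrn4, Gpm6a and Bnc1. Msln, Wt1, Upk1b and Podxl had no entry. Mslnl and Itln1 are printed because they were near the floor at Day 0. Upk3b and Lrrn4 are printed because they moved together across libraries and each window holds the letters GGAATG, which are those of TEAD-type sites. Sequences run 5′ to 3′ on the strand of the gene, and capitals mark GGAATG or its reverse complement.
Mslnl, chr17:25735790-25736089, plus strand: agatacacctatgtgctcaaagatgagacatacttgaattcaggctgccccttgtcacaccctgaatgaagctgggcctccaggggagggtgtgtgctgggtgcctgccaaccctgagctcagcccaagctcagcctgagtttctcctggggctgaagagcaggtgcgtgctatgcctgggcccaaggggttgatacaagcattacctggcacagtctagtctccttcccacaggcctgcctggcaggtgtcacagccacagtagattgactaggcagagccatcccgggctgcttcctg
Itln1, chr1:171535245-171535544, minus strand: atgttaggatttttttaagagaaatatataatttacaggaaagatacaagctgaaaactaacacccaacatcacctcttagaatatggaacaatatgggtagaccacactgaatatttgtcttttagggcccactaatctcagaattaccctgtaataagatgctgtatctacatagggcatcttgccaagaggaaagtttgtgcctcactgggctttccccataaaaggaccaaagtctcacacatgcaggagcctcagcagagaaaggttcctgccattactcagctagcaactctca
Upk3b, chr5:136038246-136038545, plus strand: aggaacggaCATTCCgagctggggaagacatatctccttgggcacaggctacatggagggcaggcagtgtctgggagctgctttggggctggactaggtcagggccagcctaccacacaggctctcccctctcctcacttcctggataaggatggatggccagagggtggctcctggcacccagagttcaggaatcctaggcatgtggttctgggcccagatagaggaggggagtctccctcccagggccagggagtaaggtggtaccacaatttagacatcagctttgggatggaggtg
Lrrn4, chr2:132880813-132881112, minus strand: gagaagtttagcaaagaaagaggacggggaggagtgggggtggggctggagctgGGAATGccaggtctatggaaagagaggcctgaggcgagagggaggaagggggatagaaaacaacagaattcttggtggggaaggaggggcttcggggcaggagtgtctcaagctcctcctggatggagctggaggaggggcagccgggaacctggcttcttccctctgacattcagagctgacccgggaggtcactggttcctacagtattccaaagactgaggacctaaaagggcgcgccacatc
The match lay at -196 to -191 from the start on the strand of Lrrn4 and at -241 to -236 on the opposite strand at Upk3b. Another match, at -125 to -120 on the strand of the gene, lay in 1 of the 2 windows of Gpm6a, chr8:54779184-54779483, which is not printed. The windows of Bnc1, Mslnl and Itln1 held 0 matches to GGAATG. Bnc1 also moved with Lrrn4, with a Pearson r of log2 CPM of 0.95 over the 8 Day 2 libraries. Across 32851 RefSeq windows of 300 bases, 14.7% held GGAATG on either strand. GTGGGAG, the letters of a WT1-type site, and GCGTGGG, those of an EGR-type site, occurred in 9.73% and 5.04% of all windows. Neither was found in the 7 windows of these genes, of which Gpm6a has 2. A match or its lack describes the letters in these windows and says nothing of binding.

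Mesothelin (Msln), the GPI-anchored surface glycoprotein used as the standard marker of mesothelium, rose more than any other tested member between Day 0 and Day 2. It stood at 1.03, 1.49, 0.917 and 0.809 CPM at Day 0. In Day 2 controls it stood at 17.1, 15.9, 16 and 20.4 CPM. Under compression it stood at 17.8, 30.2, 28.4 and 16.9 CPM. All 8 Day 2 libraries lay above all 4 Day 0 libraries, while the control and compression libraries overlapped, with compression replicates 2 and 3 the highest of the 12. The rise was 17-fold in controls (log2 4.09, SE 0.25, edgeR adjusted p = 9.78e-08) and 22.9-fold under compression (log2 4.52, SE 0.24, edgeR adjusted p = 3.53e-08). Msln lies at chr17:25748613-25754378 on the minus strand of GRCm38.

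Mslnl, a mesothelin-like gene, is the neighbour of Msln, at chr17:25736042-25748330 on the plus strand. The annotated ends of the pair lie 282 bp apart with 0 genes between them, and they shared 0 of their 30-base words. Msln shared 118 of its 3210 words (3.68%) with other genes, 77 of them with Syt12, and Mslnl shared 0. Mslnl had 3, 1, 1 and 3 reads at Day 0, against 379 in all in the controls and 510 under compression. Its Day 2 levels were 3.28, 4.15, 3.33 and 3.7 CPM in controls and 3.42, 4.58, 4.53 and 5.02 CPM under compression. Per unit of depth the controls had 41.7 times the Day 0 reads and the compression libraries 51.2 times. The Day 2 groups overlapped, with a compression to control ratio of 1.23. Over the 12 libraries log2 CPM of Msln and Mslnl had a Pearson r of 0.99, and after subtraction of group means it was 0.09. The first value rests on the shared step between the days, and both are descriptions over libraries that share depth.

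**Figure D1:**
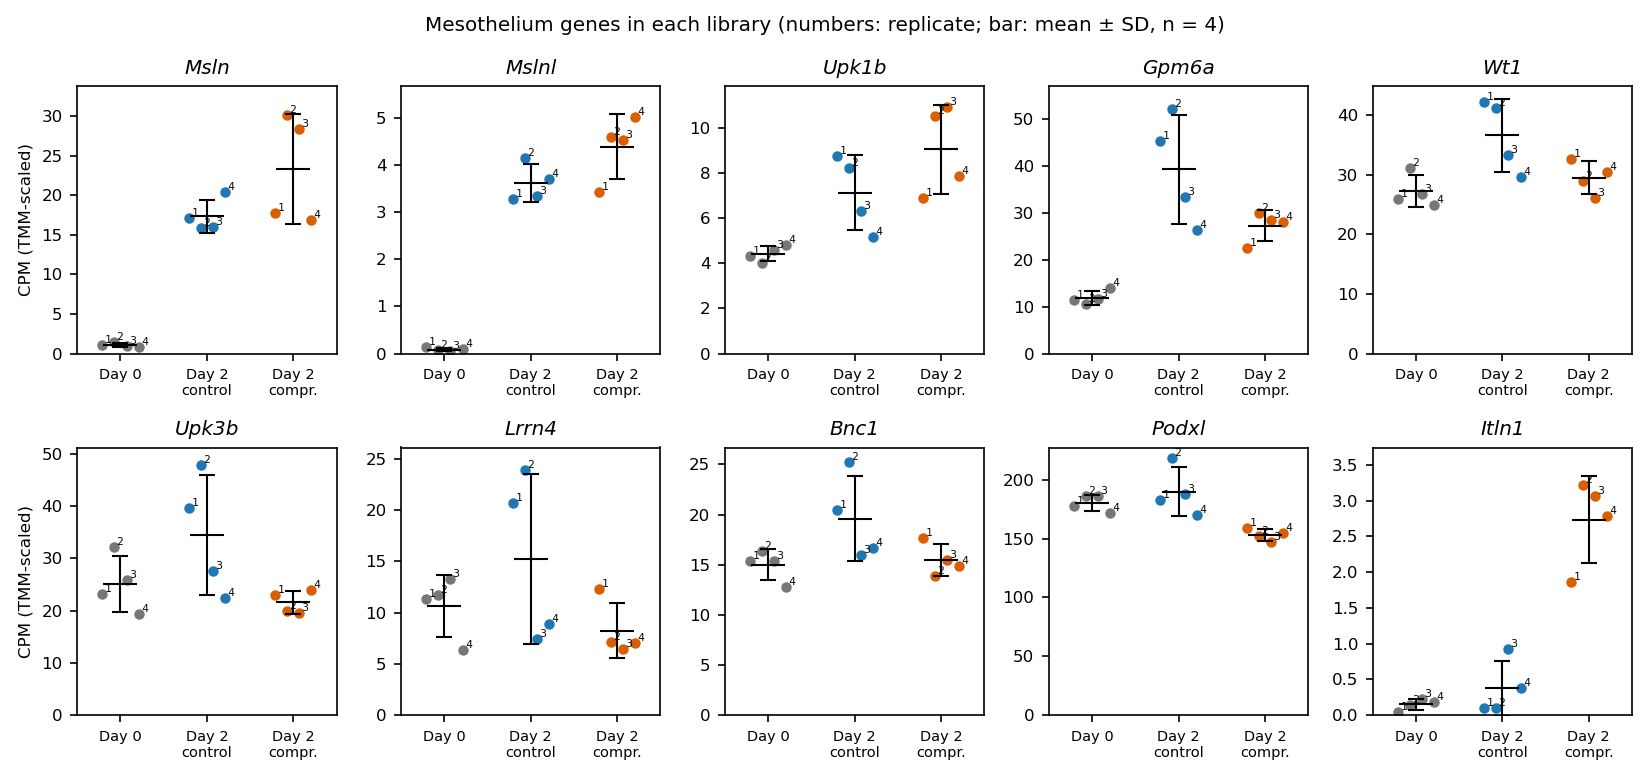
Level of each of the 10 genes in CPM (vertical axis of each panel, linear from 0) in the 12 libraries, grouped as Day 0, Day 2 control and Day 2 compression (horizontal axis). Points are libraries, numbered by replicate, and bars are group means ± SD (n = 4). Msln and Mslnl step up between the days in every library, and Itln1 is high in the 4 compression libraries.

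Upk1b and Gpm6a, a pair of multi-pass membrane proteins, were the other genes that rose under both Day 2 conditions. Upk1b is a tetraspanin of the uroplakin family, best known from the bladder lining. It stood at 4.32, 3.99, 4.59 and 4.79 CPM at Day 0, at 8.75, 8.23, 6.32 and 5.17 CPM in controls and at 6.88, 10.5, 10.9 and 7.87 CPM under compression. No Day 2 library fell to the Day 0 range, although control replicate 4 came close to it. The log2 change from Day 0 was 0.69 (SE 0.19, edgeR adjusted p = 0.0102) in controls and 1.03 (SE 0.19, edgeR adjusted p = 0.000539) under compression. Upk1b lies at chr16:38773184-38800328 on the minus strand.

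Gpm6a encodes a proteolipid-family glycoprotein that is also abundant in neurons, at chr8:54954843-55060871 on the plus strand. It stood at 11.5, 10.5, 11.6 and 14 CPM at Day 0. In controls it stood at 45.4, 52.1, 33.4 and 26.4 CPM, and under compression at 22.5, 29.9, 28.6 and 28.1 CPM. The Day 2 libraries were all above Day 0, and control replicates 1 and 2 were the highest of all. The rise was 3.3-fold in controls (log2 1.72, SE 0.18, edgeR adjusted p = 1.38e-05) and 2.28-fold under compression (log2 1.19, SE 0.18, edgeR adjusted p = 0.000167). The summed level of 8 markers of neural crest and neurons was 64.5 to 85.5 CPM at Day 0, 69 to 119 CPM in controls and 80.6 to 125 CPM under compression. Their part in the change of Gpm6a was not tested.

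Wt1 and Bnc1, the transcription factors among the genes, moved little. Wt1, a zinc-finger factor that mesothelium shares with epicardium and kidney podocytes, lies at chr2:105126529-105173616 on the plus strand. It stood at 26, 31.1, 26.8 and 25 CPM at Day 0, at 42.2, 41.3, 33.3 and 29.7 CPM in controls and at 32.7, 28.9, 26.1 and 30.4 CPM under compression. The groups overlapped in every comparison, and control replicate 4 lay below Day 0 replicate 2. It rose in controls against Day 0 (log2 0.44, SE 0.11, edgeR adjusted p = 0.00803), and under compression the log2 difference from Day 0 was 0.12 (SE 0.11, edgeR adjusted p = 0.396).

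Bnc1 (basonuclin 1), a zinc-finger protein also made by basal keratinocytes, lies at chr7:81966672-81992292 on the minus strand. It stood at 15.4, 16.4, 15.4 and 12.8 CPM at Day 0, at 20.5, 25.2, 16 and 16.7 CPM in controls and at 17.7, 13.9, 15.5 and 14.9 CPM under compression. Control replicates 3 and 4 sat beside the Day 0 libraries. The rise in controls was small (log2 0.39, SE 0.14, edgeR adjusted p = 0.0363), and it no longer passed the threshold when any 1 of 6 libraries was left out. Those were Day 0 replicates 1, 3 and 4, control replicates 1 and 2 and compression replicate 3, with adjusted p from 0.0558 to 0.151. Under compression Bnc1 differed from Day 0 by 0.05 (SE 0.14, edgeR adjusted p = 0.778).

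Upk3b and Lrrn4, surface genes that mark mesothelium from early stages, did not pass the test between the days. Upk3b, a uroplakin at chr5:136038496-136046487 on the plus strand, stood at 23.2, 32.1, 25.9 and 19.3 CPM at Day 0. In controls it stood at 39.7, 47.8, 27.6 and 22.5 CPM, and under compression at 22.9, 19.9, 19.5 and 24 CPM. Control replicates 1 and 2 were the only libraries above the Day 0 range. The log2 difference from Day 0 was 0.47 in controls (SE 0.21, edgeR adjusted p = 0.0932) and -0.21 under compression (SE 0.21, edgeR adjusted p = 0.43). Without control replicate 4 the first became 0.6 (edgeR adjusted p = 0.0223), and without Day 0 replicate 2 it was also 0.6 (edgeR adjusted p = 0.0492).

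Lrrn4, a leucine-rich repeat membrane protein at chr2:132868305-132880891 on the minus strand, had the widest spread of the tested genes among the controls (coefficient of variation 54.5%). It stood at 11.3, 11.7, 13.3 and 6.32 CPM at Day 0, at 20.7, 23.9, 7.44 and 8.88 CPM in controls and at 12.3, 7.17, 6.45 and 7.06 CPM under compression. The controls split into a high and a low pair, and compression replicate 1 stood above the other 3 of its group. Its log2 difference from Day 0 was 0.54 in controls (95% interval -0.27 to 1.35, edgeR adjusted p = 0.273) and -0.36 under compression (SE 0.38, edgeR adjusted p = 0.452).

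Of the 7 genes taken by symbol, 5 were called higher in Day 2 controls than at Day 0 and 0 lower, where 40.2% of all genes tested were called (22.6% higher and 17.6% lower). Under compression 3 of the 7 were called higher against Day 0, where 49.1% of all genes were called (26.6% higher and 22.5% lower). In each of these comparisons 3 of the 7, Msln, Upk1b and Gpm6a, lay above Day 0 without overlap. Groups did not overlap for 37.9% of all genes in controls against Day 0 (20.4% higher, 17.4% lower) and for 43% under compression (23.5% higher, 19.5% lower). The median log2 change of the 7 was 0.54 and 0.12 in these comparisons, against 0.02 over all genes in both. The 2 comparisons share their Day 0 libraries, so they are not independent of each other.

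**Figure D2:**
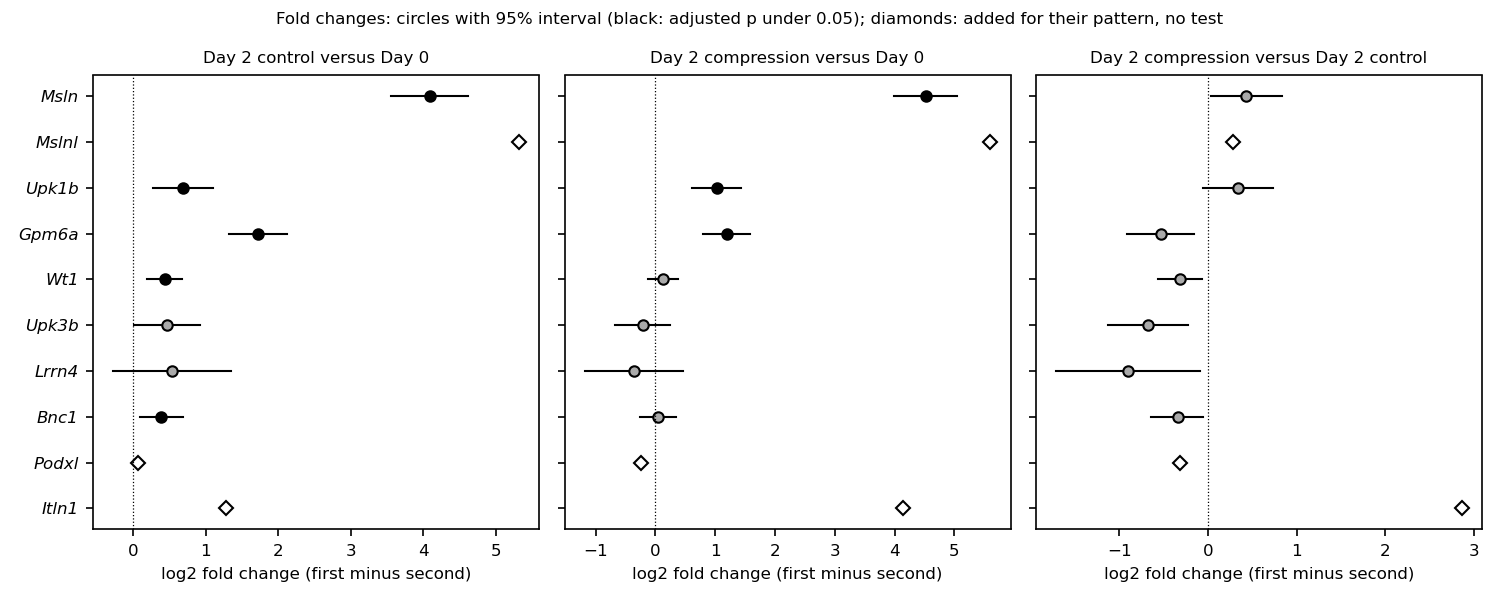
Log2 fold change (horizontal axis) of each gene in the 3 comparisons, with 95% intervals for the 7 tested genes (circles) and none for Mslnl, Podxl and Itln1 (open diamonds), which were chosen on these data. Black circles passed the adjusted threshold of 0.05 and grey ones did not, and against control no circle is black.

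Held against the Day 2 controls, compression gave no call for any of the 7 genes at an adjusted p of 0.05, nor for any gene of the 15246 (0%) by edgeR's quasi-likelihood test. At an unadjusted p under 0.05 the test marked 1839 genes (12.1%), 6.73% higher and 5.33% lower. Of the 7 genes 6 were marked at that level, Msln higher and Wt1, Upk3b, Lrrn4, Gpm6a and Bnc1 lower. That count fell to 2 without control replicate 2, and to 3 without control replicate 1 or without compression replicate 2 or 3. All 7 had control and compression libraries that overlapped. DESeq2 called 71 genes and limma-voom with quality weights 1958, and the second called 4 of the 7. These were Msln (0.73, adjusted p = 0.0094), Upk1b (0.6, adjusted p = 0.0168), Upk3b (-0.63, adjusted p = 0.0249) and Wt1 (-0.31, adjusted p = 0.0352). With compression replicates 2 and 3 summed to 1 library, limma-voom called 231 genes and none of the 7.

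The sizes of these differences were modest. The log2 difference of compression from control was 0.43 for Msln (95% interval 0.03 to 0.83, edgeR adjusted p = 0.391) and 0.34 for Upk1b (-0.05 to 0.73, edgeR adjusted p = 0.462). For Upk3b it was -0.68 (-1.13 to -0.23, edgeR adjusted p = 0.331), for Gpm6a -0.53 (-0.91 to -0.16, edgeR adjusted p = 0.356) and for Lrrn4 -0.9 (-1.71 to -0.09, edgeR adjusted p = 0.389). For Wt1 it was -0.31 (-0.56 to -0.07, edgeR adjusted p = 0.376) and for Bnc1 -0.34 (-0.64 to -0.05, edgeR adjusted p = 0.38). The intervals are not adjusted for the number of genes. Both signs rest in part on single libraries. Control replicates 1 and 2 were the 2 highest of the 12 libraries for 5 of the 10 genes, Wt1, Upk3b, Lrrn4, Gpm6a and Bnc1, and without control replicate 2 these differences shrank to -0.25, -0.47, -0.59, -0.36 and -0.19. Without compression replicate 2 the difference of Msln was 0.28.

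Podxl and Itln1 are the genes whose compression and control libraries did not overlap, which is part of why they were chosen. Over all genes tested 5.77% did not overlap between these groups, 3.07% higher and 2.7% lower. Podxl, the sialomucin podocalyxin of mesothelium, podocytes and blood vessel lining, lies at chr6:31519488-31563981 on the minus strand. It stood at 178, 186, 186 and 172 CPM at Day 0, at 183, 219, 188 and 170 CPM in controls and at 159, 152, 147 and 155 CPM under compression. The 4 compression libraries were the lowest of the 12, with a log2 difference of -0.31 from control and -0.24 from Day 0. Endothelial markers moved over the same days: all 10 on the list were called lower in both Day 2 groups against Day 0. They summed to 369 to 614 CPM at Day 0, 69.8 to 129 CPM in controls and 105 to 123 CPM under compression. Their part in the level of Podxl was not tested.

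Itln1 (intelectin 1), a secreted lectin that binds microbial sugars and is made by mesothelium and by gut goblet cells, lies at chr1:171518122-171535294 on the minus strand. It had 1, 2, 5 and 6 reads at Day 0, which is 0.0428, 0.142, 0.229 and 0.18 CPM. In controls it had 3, 3, 27 and 6 reads, which is 0.0965, 0.103, 0.918 and 0.383 CPM. Under compression it had 49, 92, 91 and 86 reads, which is 1.86, 3.22, 3.07 and 2.78 CPM. Every compression library was above every other library, control replicate 3 stood highest among the rest, and 5 of the 8 Day 0 and control libraries held 5 reads or fewer. Per unit of depth compression had 7.44 times the reads of control in these libraries, a fitted log2 difference of 2.86 that became 4 without control replicate 3. Of its 30-base words 4.06% were shared with the gene model Gm9765, which has no row in the table. Of 8 gut epithelium markers, Cdx2 had 0 reads in all 12 libraries, while the goblet cell mucin Muc2 had means of 1.18 (Day 0), 1.2 (control) and 1.22 CPM (compression). Vil1, a brush border protein, was called higher under compression than at Day 0 (0.141 and 0.364 CPM at Day 0 and under compression, log2 1.42, edgeR adjusted p = 0.0312). The 8 markers summed to 1.42 to 2.06 CPM at Day 0 and 1.89 to 2.4 CPM under compression. In controls they summed to 1.58 to 10.3 CPM, the highest in control replicate 4, the library in which the liver markers stood apart. There Fabp1 alone had 7.28 CPM, and it had 0 reads in the other 11 libraries. The part of the gut markers in the level of Itln1 was not tested.

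**Figure D3:**
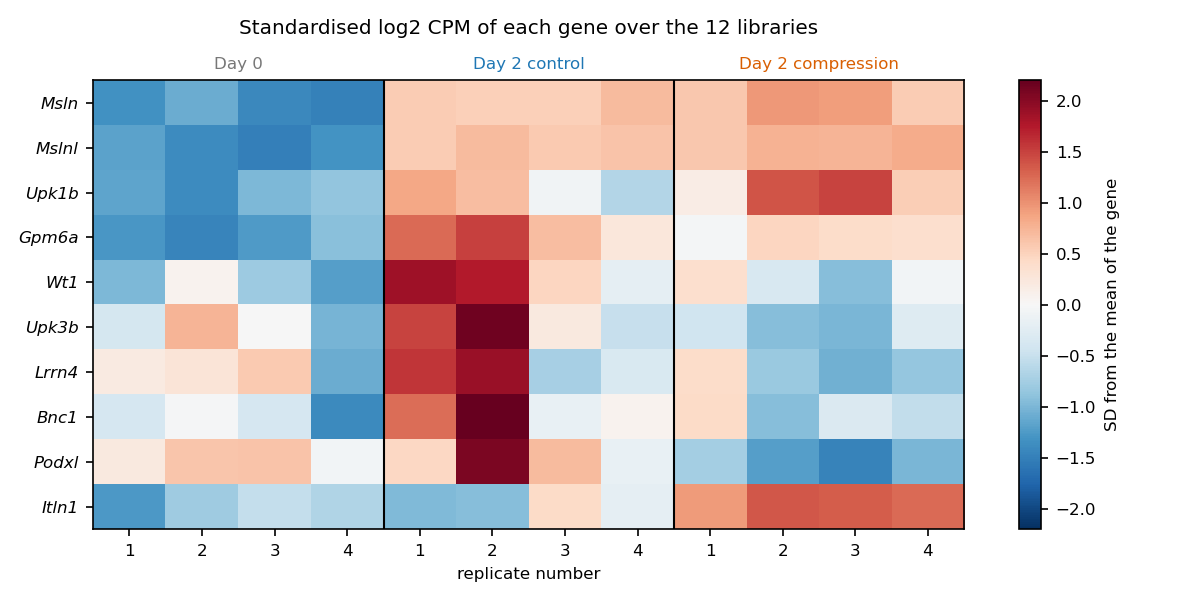
Each gene's log2 CPM in the 12 libraries, standardised to mean 0 and SD 1 over the libraries (colour scale, no unit), with genes as rows and libraries as columns in group order. Control replicates 1 and 2 are the highest columns for Wt1, Upk3b, Lrrn4, Gpm6a and Bnc1, and the Day 0 columns are the lowest for Msln, Mslnl and Upk1b.

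Within the set the genes did not move as a single block. Over the 8 Day 2 libraries, Wt1, Upk3b, Lrrn4, Gpm6a and Bnc1 had pairwise Pearson r of log2 CPM from 0.72 to 0.95 (10 pairs, median 0.895). For Msln, Mslnl and Upk1b the range was 0.48 to 0.58 (3 pairs). After subtraction of group means over all 12 libraries, the first set kept a median of 0.79 (0.35 to 0.92), and the second had 0.09 to 0.19. Gpm6a did not keep to the first set. After that subtraction it had 0.35 to 0.5 with the other genes of the first set, against 0.86 with Upk1b, 0.31 with Mslnl and -0.19 with Msln. Wt1 and Upk3b had 0.95 over the Day 2 libraries, where Wt1 and Msln had -0.72. After subtraction of group means over the 12 libraries these values were 0.92 and -0.15, so the negative value rests largely on the group means. Without that subtraction Wt1 and Msln had 0.47 over the 12 libraries. These sets were drawn up after the values were seen, and the correlations are descriptions over libraries that share depth and sampling.

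**Figure D4:**
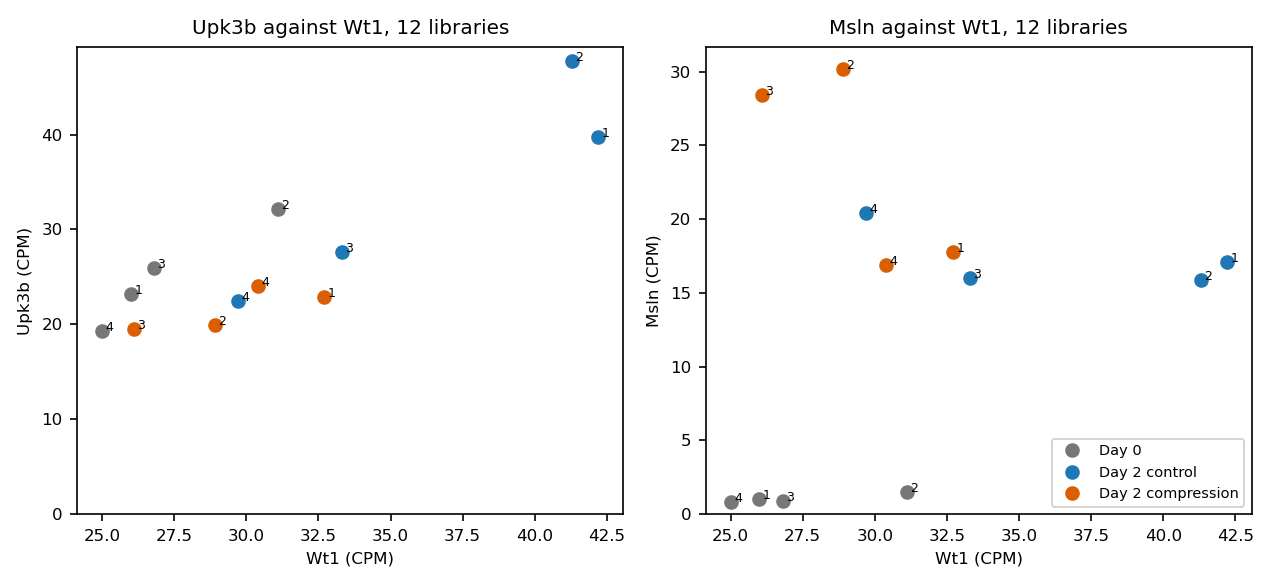
Level of Upk3b (first panel) and of Msln (second panel) against that of Wt1, all in CPM on linear axes (that of Wt1 does not start at 0), with 1 point per library and its replicate number, coloured by group. Upk3b rises with Wt1 across the libraries, while the compression libraries with the highest Msln, replicates 2 and 3, have lower Wt1 than control replicates 1 and 2.

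On a scale that allows for gene length (RPKM on annotated exon length), Podxl was by far the highest, with means of 32.9 at Day 0, 34.6 in controls and 27.9 under compression. At Day 0 it was followed by Upk3b (7.12), Wt1 (4.39), Gpm6a (3.7), Bnc1 (3.23), Lrrn4 (2.86) and Upk1b (2.12). Msln (0.347), Itln1 (0.13) and Mslnl (0.0319) came last. In controls Gpm6a (12.2) moved ahead of Upk3b (9.74), Wt1 (5.91) and Msln (5.67). Under compression Gpm6a (8.48), Msln (7.61) and Upk3b (6.11) were the highest after Podxl. Several neighbours in these orders, such as Wt1 and Msln in controls, lay within the spread of the libraries.

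The other mesothelium genes, from a list of 20, rose in larger part. By symbol 19 were found in the table (Muc16 was not analysed here) and 18 could be tested, Slpi being too low. In controls 13 were called higher and 2 lower than Day 0 (median log2 change 0.89), and under compression 12 higher and 2 lower (median 0.99), against the shares for all genes given above. The largest rises among those called were of Efemp1, a matrix glycoprotein (log2 2.32 in controls and 2.38 under compression), and Igfbp6, a binding protein of insulin-like growth factors (1.94 and 2.21), both named after their values were seen. The keratins had the smallest p-values: Krt19 went from 33.9 ± 4.55 CPM at Day 0 to 99.6 ± 2.88 in controls and 119 ± 7.65 under compression. Krt7 went from 40.7 ± 2.64 to 114 ± 17 and 111 ± 7.95, and Krt8 from 80.9 ± 6.24 to 155 ± 13.6 and 165 ± 9.17. The 2 that fell in both were Calb2, the calcium-binding protein calretinin (42.6 ± 8.78, 15.3 ± 1.79 and 12 ± 2.15 CPM), and Nkain4 (41.5 ± 3.42, 26.7 ± 4.44 and 28.6 ± 5.39 CPM), both named after their values were seen. Against control 0 of the 18 were called, and 4 were marked at an unadjusted p under 0.05. Lung epithelium also makes the keratins, Cdh3 and Ezr, and its 8 markers summed to 947 to 1100 CPM at Day 0, 1830 to 1960 CPM in controls and 1980 to 2540 CPM under compression. Of that sum Sftpc alone had means of 72.9, 574 and 1020 CPM in the same order. In each Day 2 group 5 of the 8 were called higher than Day 0 and 1, Sox9, lower, against the shares for all genes given above. The part of epithelium in the rises of the other mesothelium genes was not tested.

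Of 10 transcription factors of mesothelium and epicardium, none was called higher and 6 were called lower than Day 0 in each Day 2 group, where 17.6% of all genes were called lower in controls and 22.5% under compression. Isl1, a factor of the lateral plate and heart field, went from 16.1 ± 3.47 CPM to 10.2 ± 1.83 in controls and 8.06 ± 1.29 under compression. Nr2f2, an orphan nuclear receptor, went from 290 ± 17.6 CPM to 231 ± 18.8 and 245 ± 5.65. Tbx18, a T-box factor of the epicardium, went from 7.27 ± 1.4 CPM to 5.14 ± 0.709 and 4.24 ± 0.784. Of 11 genes of the epithelial to mesenchymal transition, 1 was called higher and 7 lower in controls, and 2 higher and 5 lower under compression, beside the same shares of all genes called lower and 22.6% and 26.6% called higher. Twist2 went from 12.2 ± 0.427 CPM to 4.74 ± 0.588 and 5.75 ± 0.708, and Zeb1 from 60.3 ± 3.99 CPM to 40.8 ± 3.12 and 36 ± 3.74. Against control 0 genes of either list were called. In bulk RNA the share of mesothelium in these levels cannot be told from that of other cells, and the part of other cells in these falls was not tested.

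**Figure D5:**
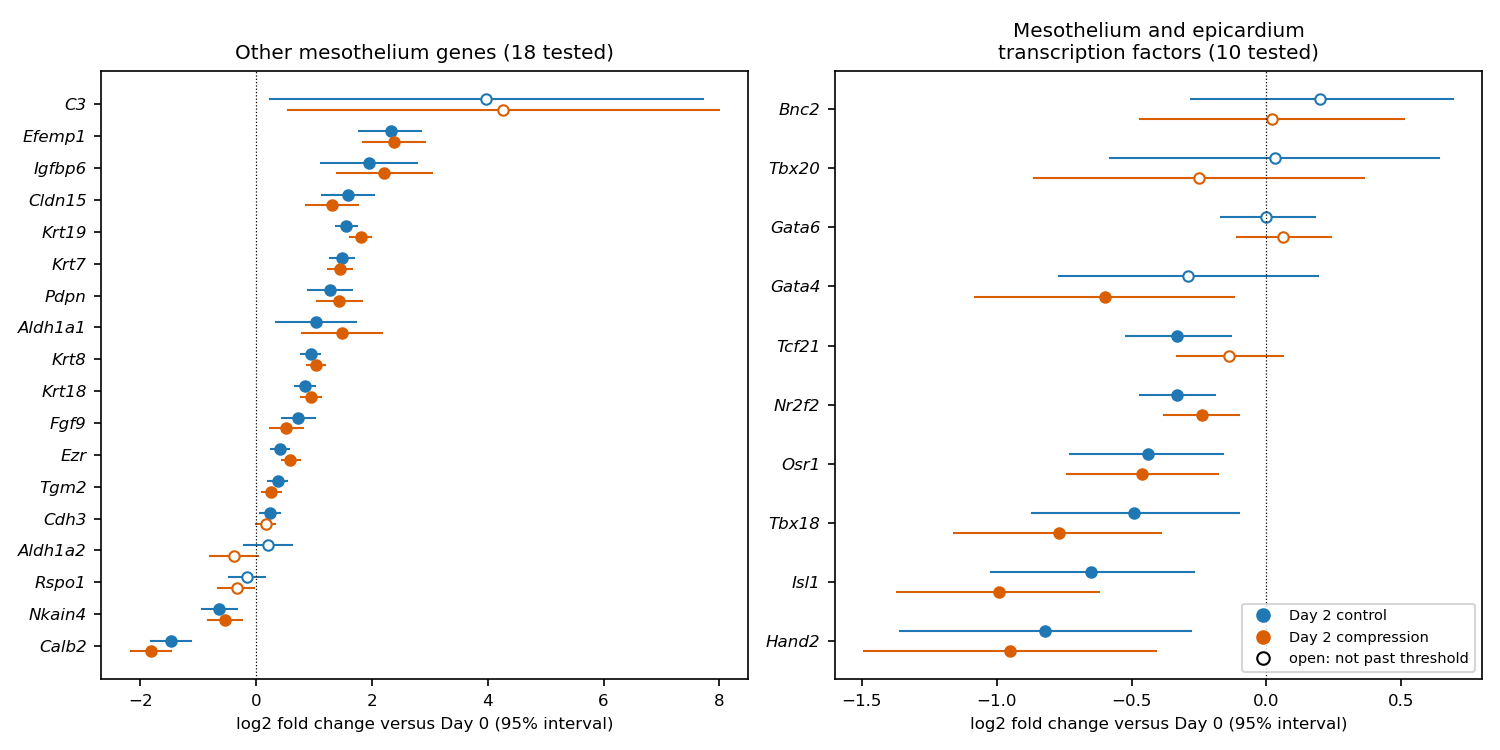
Log2 fold change against Day 0 (axis in log2 units) of 18 other mesothelium genes (first panel) and of 10 mesothelium and epicardium transcription factors (second panel), for controls and for compression, with 95% intervals. Filled points passed the adjusted threshold and open points did not. The keratins, Efemp1 and Igfbp6 lie to the right of 0, while Calb2, Nkain4, Isl1 and Hand2 lie to the left under both conditions.

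Markers of other tissues that share these genes were checked. The podocyte gene Nphs1, which encodes nephrin, had 2 reads in all 12 libraries together. The heart carries a Wt1-positive epicardium. Its muscle markers summed to 9.96 to 49.2 CPM at Day 0, 31.4 to 60.4 CPM in controls and 36.4 to 71.5 CPM under compression. Nppa had 2 reads in all. Of 7 heart markers tested, 0 were called in controls against Day 0, and only Myh7, a heart myosin, was called under compression. Myh7 went from 4.85 ± 2.96 CPM at Day 0 to 9.86 ± 4.94 in controls and 20.6 ± 5.95 under compression. Under compression it was higher than Day 0 by log2 2.03 (edgeR adjusted p = 0.0024). The part of the heart muscle markers in the level of Wt1 was not tested. The bladder markers Krt5 and Psca had 18 and 4 reads in all, while 3 other uroplakins rose beside Upk1b. Upk1a went from 1.31 ± 0.191 CPM at Day 0 to 3.02 ± 0.411 in controls (log2 1.22, edgeR adjusted p = 0.00011) and 3.08 ± 0.187 under compression (log2 1.24, edgeR adjusted p = 6.51e-05). Upk2 and Upk3a rose in both as well, from 0.0521 ± 0.0497 and 0.0684 ± 0.101 CPM at Day 0, which is below the floor. Krt20, another bladder marker, was called lower under compression than at Day 0 (0.66 and 0.146 CPM at Day 0 and under compression, log2 -2.07, edgeR adjusted p = 0.00342).

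The genes most like the 7 in pattern were ranked among 13764 genes by the Pearson correlation of log2 CPM with the mean standardised profile of the 7. Over all 12 libraries the closest were Sema3d (0.956), Upf3a (0.944), Robo3 (0.932), Plscr2 (0.926) and Fgf9 (0.914). Fgf9, the growth factor that mesothelium sends to the mesenchyme, went from 9.43 ± 1.43 CPM at Day 0 to 15.5 ± 2.56 in controls and 13.4 ± 0.525 under compression. Sema3d, a secreted guidance cue, went from 51.2 ± 4.47 CPM to 78.8 ± 14.2 and 66.7 ± 3.04. After subtraction of group means the closest were Arsk (0.924), 3632451O06Rik (0.91), Gpr37 (0.902), Cav1 (0.892) and Vgll3 (0.892), a different 5. The mean profile did not stand equally for all 7 genes. Their own r with it ran from 0.599 (Upk1b) and 0.657 (Msln) to 0.932 (Wt1) over the 12 libraries. After subtraction of group means it ran from 0.123 (Msln) to 0.902 (Upk3b).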

How the data were processed

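The deposited table holds the authors' raw counts for each gene symbol in 12 libraries. Per the submitters' processing notes they used fastp, STAR and mm10. The sources used here state no versions, annotation, strand setting or counting step, so reads of overlapping genes on opposite strands cannot be told apart. Counts were tested in R 4.3.3 with edgeR 4.0.16 (filterByExpr with min.count 10 and min.total.count 15, TMM, robust quasi-likelihood fit of all 12 libraries with group as the only term). P-values were adjusted by Benjamini-Hochberg over 15246 genes, with a threshold of 0.05. The script was tested on simulated data. Alternatives used DESeq2 1.42.0, limma 3.58.1, other scalings and filters, a replicate block and left-out libraries. Coordinates and exon lengths came from GENCODE on GRCm38. All 10 members are named, with up to 3 genes per list by smallest p and the 5 most similar in pattern. Other genes, among them Nphs1, Cdx2, Muc2, Nppa, Krt5 and Psca, are named outside that rule. Members and lists were chosen with earlier results of these data known. One marker gene is not reported here.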

Additional observations from a re-analysis of the deposited data

Results flagged for a closer look

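Among 30 groups of 4 libraries (10 genes in 3 groups), 1 had a library far from the others. Lrrn4 stood at 12.3 CPM in compression replicate 1, where the nearest of the other 3 libraries stood at 7.17 CPM, a gap that made up 0.878 of the range of the group. Chance alone flags about 1 in 20 groups.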

How the results depend on the processing

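The number of genes called between compression and control was 0 by edgeR. It was 71 by DESeq2, 1958 by limma-voom with quality weights, 231 by limma-voom with compression replicates 2 and 3 summed (chosen after seeing the data) and 4 with only the 8 libraries of the comparison in the fit. Leaving out each library gave 0 to 53, the highest without control replicate 4, and 19 without compression replicate 1. Of the 7 genes taken by symbol, 4 were called by limma-voom with quality weights. The other alternatives called 0 of the 7. Against Day 0, 3 of the 7 were called under compression in every alternative. Bnc1 under compression against Day 0 changed sign by limma-voom (-0.01), without Day 0 replicate 4 (-0.04) and without compression replicate 1 (-0.04; range without single libraries -0.04 to 0.09), and by limma-voom with replicates 2 and 3 summed it was -0.00047. Bnc1 in controls against Day 0 also did not pass the threshold by limma-voom (adjusted p = 0.0974) and with only the 8 libraries (adjusted p = 0.0573). Podxl in controls against Day 0 was -0.02 without control replicate 2 (range without single libraries -0.02 to 0.1), and Itln1 was 0.13 without control replicate 3. The cause was not tested. The replicate block called 6569, 7895 and 0 genes in the 3 comparisons and 5, 3 and 0 of the 7. Samples with the same number showed little shared deviation (12 pairs, r -0.181 to 0.166, median 0.059, against a median of -0.0025 for different numbers). The pairs numbered 1 had r of 0.108 to 0.166. Only 2 of 12 libraries were closest to their own number, so the numbers were not taken to pair the samples. Depth limits Mslnl and Itln1 at Day 0, with 8 and 14 reads in all.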

Other observations

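The numbers in the descriptions of the libraries, which the sources used here do not explain, were 3, 4, 21 and 23 at Day 0, 2, 12, 25 and 31 in controls, and 1, 13 (A and B) and 14 under compression. Macrophage and leukocyte markers (8 genes) summed to 98.4 to 116 CPM at Day 0, 129 to 209 CPM in controls and 191 to 230 CPM under compression. Skeletal muscle markers (8 genes) summed to 3.2 to 6.86 CPM, 26.3 to 42.7 CPM and 19.3 to 27.9 CPM in the same order. Most of that sum at Day 2 was Myh8, with means of 2.51, 21.2 and 18.1 CPM in that order. Only 3 of the 8 could be tested. Myog and Myod1 had 3 and 0 reads in all under compression. Among the controls Myog had a median of 0.103 CPM and a highest level of 4.79 CPM.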
